A study of Mus musculus with 2 samples.

Results

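The genes described here encode Cadm1 and 9 other molecules that hold cells together at junctions or through immunoglobulin-like domains, measured in both main subsets of mouse spleen dendritic cells (DCs), the cells that take up antigen and show it to T cells. The 10 genes are Cadm1, Crtam, Hepacam2, Esam, F11r, Jam2, Jam3, Alcam, Epcam and Pecam1. A probe set (a group of short oligonucleotides for 1 transcript) belonged to them where the array annotation gave it exactly 1 gene and that gene was one of the 10. That rule found 24 of the 45101 probe sets on the array, and all 10 of the genes among the 18194 with a single-gene probe set. The genes were selected on family membership with the large log2 differences of Cadm1 and Hepacam2 on these same arrays already known, so their values are a description and no test was made on them.

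CD8+ DCs were set against CD8- DCs. Both came from C57BL/6 mice that carried B16 melanoma cells, a mouse tumour line, made to produce Flt3 ligand, the cytokine that drives DC growth, and spleens were taken 10 to 12 days after the injection. DCs were enriched with magnetic beads, and cells with CD11c but without CD3 or B220 were then sorted by the presence or absence of CD8a. Both groups therefore share the tumour, the Flt3 ligand and the sort for CD11c, neither was stimulated, and the number of mice behind each sample is not given in the sources used here. Each population was measured on 1 array, so no value below has a replicate, and a difference cannot be told apart from variation between mice, sorts or hybridisations.

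Cadm1 is a nectin-like molecule of the immunoglobulin superfamily that binds itself and other nectin-like molecules on neighbouring cells, and it is the ligand of Crtam, a receptor found on activated T cells and NK cells. The JAM proteins (F11r, Jam2 and Jam3) and the related Esam sit at the contacts of endothelial and epithelial cells and are also used by leukocytes that cross them. Alcam binds the T cell protein CD6, Pecam1 binds itself between endothelial cells, platelets and leukocytes, and Epcam, which has no immunoglobulin domains, binds itself in epithelia. In mouse spleen, Cadm1 is known as a surface marker of the CD8+ DC lineage.

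Signals are on the log2 scale, so a difference of 1 is 2-fold. Each difference is CD8+ minus CD8-. The floor, 3.85, is the median of every value on both arrays, and a gene counted as measured if at least 1 of its values was not under it. A gene with several probe sets was represented by the one with the highest mean over both arrays. The spread of the difference between probe sets of the same gene, pooled over 5183 genes, had an SD of 0.30. It serves as a yardstick for technical agreement within the pair of arrays and does not measure variation between mice. Signals of different probe sets are not compared with each other, because probes differ in how strongly they bind.

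Of the 10 genes, 7 were measured and 3 (Crtam, Jam2 and Jam3) were below the floor on both arrays. Cadm1 and Hepacam2 passed 2-fold towards CD8+ DCs, and F11r and Pecam1 passed it towards CD8- DCs. Alcam, Esam and Epcam differed by less than 2-fold. Over all 11404 measured genes, 3.55% passed 2-fold towards CD8+ DCs and 5.97% passed it towards CD8- DCs. Because the genes were chosen with this contrast in view, nothing is read from their 2 and 2 of 7 against those shares. The median difference of the 7 genes was -0.30, beside 0.03 for all measured genes. The genes nearest to the 2-fold line were Pecam1 (difference -1.52) on the far side of it and Esam (-0.74) on the near side.

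**Figure D1:**
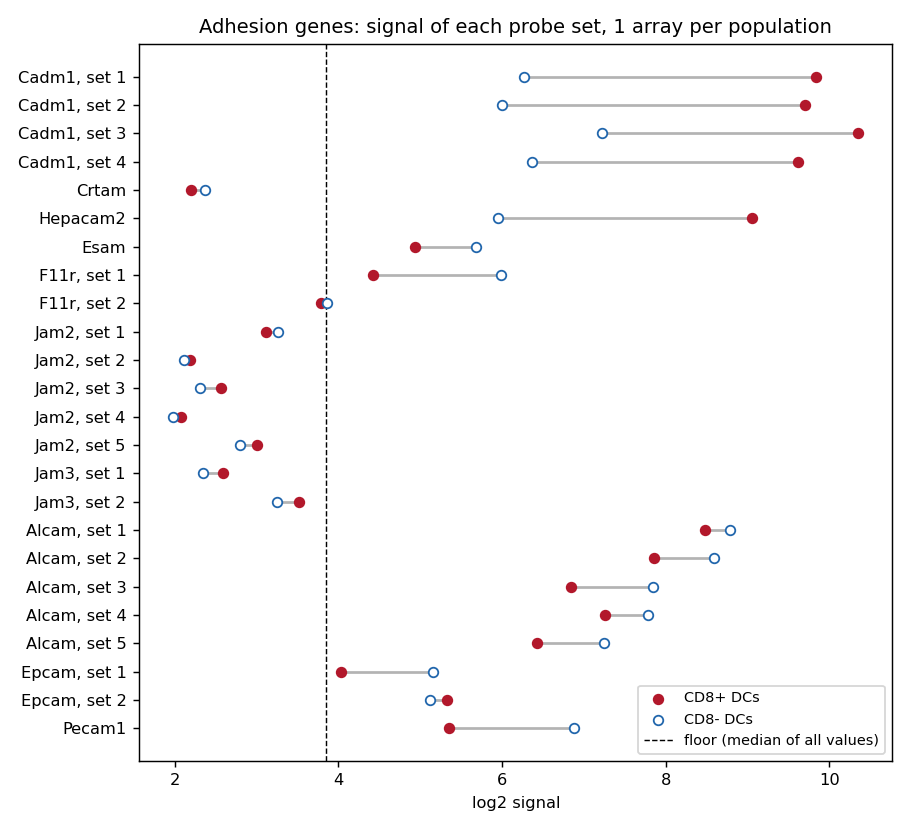
Log2 signal of each of the 24 probe sets (rows) on the array of CD8+ DCs (filled) and of CD8- DCs (open), 1 array each, with the floor of 3.85 as a dashed line. The 4 Cadm1 rows and the Hepacam2 row have their filled point far to the right of the open one, the F11r set 1 and Pecam1 rows have it to the left, and every Crtam, Jam2 and Jam3 row lies below the floor. Positions are to be compared within a row, not between rows.

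The promoters of the genes past 2-fold in opposite directions are shown as the regulatory sequence beside the transcripts that were measured. They run from 250 bases before to 50 bases after the annotated start, and come from the RefSeq promoter table of build GRCm38.p6, which had an entry for Hepacam2, F11r, Alcam and Epcam. Hepacam2 lies at chr6:3494449-3494748 on the minus strand and F11r at chr1:171437311-171437610 on the plus strand, each written 5′ to 3′ along the gene. Capitals mark matches to the motifs searched.
Hepacam2: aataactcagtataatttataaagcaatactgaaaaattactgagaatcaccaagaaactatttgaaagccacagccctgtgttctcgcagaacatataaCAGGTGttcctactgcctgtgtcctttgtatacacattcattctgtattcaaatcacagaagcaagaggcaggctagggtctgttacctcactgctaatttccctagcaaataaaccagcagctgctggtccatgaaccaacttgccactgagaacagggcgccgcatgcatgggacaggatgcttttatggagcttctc
F11r: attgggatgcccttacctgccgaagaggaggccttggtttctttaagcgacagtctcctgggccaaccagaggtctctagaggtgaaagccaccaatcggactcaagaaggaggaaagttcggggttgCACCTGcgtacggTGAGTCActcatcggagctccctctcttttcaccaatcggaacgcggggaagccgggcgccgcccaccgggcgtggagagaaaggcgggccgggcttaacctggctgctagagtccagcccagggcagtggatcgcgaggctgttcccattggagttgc

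The motifs were searched on both strands, and a match is a description of letters, not of a bound site. They were GAAANNGAA (the IRF type), TGANTCA (AP-1), GGAANNGAA (ETS with IRF), GAGGAAGT (PU.1) and CACCTG (E proteins and Zeb factors). CACCTG or its reverse complement CAGGTG was in all 4 of these promoters, against 20.2% of the 32851 promoters of the same length in the table. Cadm1 and Pecam1 had no entry there, the 4 genes do not share a direction, and several motifs were searched. Nothing is therefore read from this count. In Hepacam2 it stood 150 bases before the start, on the minus strand relative to the gene. In F11r it stood 122 bases before the start, with the AP-1 type TGAGTCA, which did not overlap it, at 109 bases. TGANTCA was in 7.81% of all promoters. Alcam had CACCTG at 40 bases, and Epcam had matches at 187 and 19 bases. None of the 4 windows held the IRF, ETS with IRF or PU.1 letters, which were in 8.56%, 8.24% and 3.20% of all promoters. The share of G and C was 43.0% in the Hepacam2 window and 60.3% in that of F11r, with a median of 52.7% over all promoters.

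**Figure D2:**
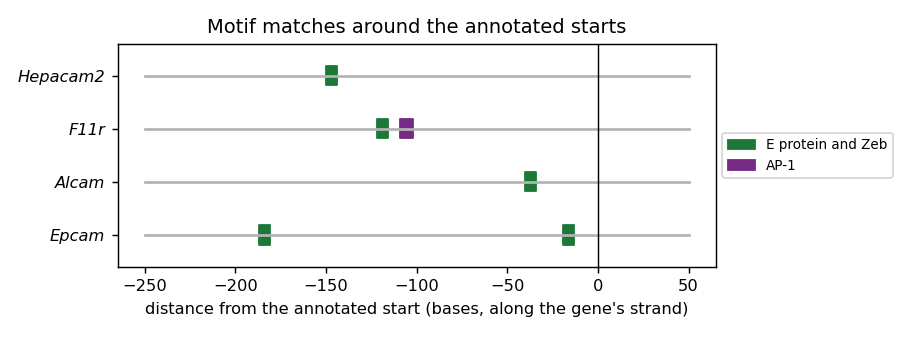
Matches to CACCTG on either strand (E protein and Zeb) and to TGANTCA (AP-1) in the promoter windows of Hepacam2, F11r, Alcam and Epcam, by distance in bases from the annotated start along the gene's strand. All 4 windows hold CACCTG or its reverse complement, and F11r alone among them holds an AP-1 type match.

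Cadm1, the nectin-like ligand, was higher in CD8+ DCs by every probe set for it. Its representative probe set read 10.35 in CD8+ DCs, against 7.22 in CD8- DCs, which is a difference of 3.13 or 8.77-fold. The other Cadm1 probe sets had 9.84, 9.71 and 9.62 in CD8+ DCs, against 6.28, 6.00 and 6.37 in CD8- DCs, in the same order. The differences of the 4 probe sets ran from 3.13 to 3.71, with a mean of 3.41 ± 0.27 (SD over probe sets, not over samples), so the set that represented Cadm1 gave the smallest of them. All 4 lay above the floor on both arrays, so the Cadm1 signal in the CD8- sample was also above the median of all values. How much of that signal was background or cross-hybridisation was not assessed. The CD8- level was between 7.67% and 11.4% of the CD8+ level over the 4 probe sets. Cd8a, the gene of the sorted protein, was at 1.42% by its representative probe set and at 1.30% to 30.1% over its 5 measured probe sets. In such bulk samples, fewer cells of a type and less RNA per cell cannot be told apart. Whether CD8+ cells carried into the CD8- sort had a part in the Cadm1 signal there was not tested.

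Crtam, the receptor of Cadm1, had a single probe set, at 2.20 in CD8+ DCs and 2.37 in CD8- DCs. Both values are below the floor, so the receptor gene did not count as measured in either DC subset, while its ligand was above the floor in both. The floor is a median and no detection calls were used, so these values do not show that the transcript was absent. The defining T cell genes Cd3d (3.19 in CD8+ DCs and 3.10 in CD8- DCs) and Cd3g (2.19 and 2.53) and the NK cell gene Ncr1 (2.47 and 2.20) were likewise below the floor on both arrays. Other markers of these cells were above it. The T cell gene Cd3e was at 4.76 in CD8+ DCs and 4.90 in CD8- DCs, and Cd5 at 3.95 and 4.87. The NK cell gene Klre1 was 2.15-fold lower in CD8+ DCs (4.16 against 5.26), and Prf1 was at 4.04 in CD8+ DCs and 4.11 in CD8- DCs.

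Around Cadm1, the list of nectins, other nectin-like molecules and their receptors had 10 of 12 genes on the array and 4 measured. None of the 4 passed 2-fold towards CD8+ DCs, and 1, Cadm3, passed it towards CD8- DCs (median of the list -0.36). Cadm3, the nectin-like molecule best known in neurons, had 4.45 in CD8+ DCs against 5.86 in CD8- DCs, a difference of -1.41, with 3 probe sets between -1.41 and -1.05. Its sign is opposite to that of Cadm1. The remaining nectin family genes were close on both arrays or below the floor. Pvr, the poliovirus receptor homologue that binds CD226 and TIGIT, was at 5.83 in CD8+ DCs and 6.22 in CD8- DCs. Nectin1 was at 5.37 and 5.01, and Afdn, which ties nectins to actin, at 6.21 and 6.54. Nectin2, Nectin3, Nectin4, Cadm4 and the receptors Cd226 and Cd96 were below the floor on both.

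Hepacam2, an immunoglobulin-like adhesion gene related to the glial and hepatic molecule Hepacam, had a single probe set with 9.05 in CD8+ DCs and 5.95 in CD8- DCs. The difference of 3.10, or 8.57-fold, was within 0.03 of that of the representative Cadm1 probe set. The CD8- level was 11.7% of the CD8+ level. This probe set has the suffix _s_at, which Affymetrix gives to sets whose probes may also match transcripts of other genes, and no second probe set was there to set beside it. The related gene Hepacam was below the floor on both arrays, at 2.98 in CD8+ DCs and 2.65 in CD8- DCs.

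Among measured genes with an official name, those with differences nearest to that of Cadm1 were Cyp8b1 (3.10), Hepacam2 (3.10), Arpin (3.10), Mpzl2 (3.09) and Ptgis (3.07). Nearness here is the gap between differences over 2 arrays, with no regard to the signal itself. In CD8- DCs, Arpin (3.78), Ptgis (3.78) and Mpzl2 were below the floor, so their differences rest on values under it. The nearest genes to Hepacam2 were the same set with Cadm1 in place of Hepacam2. One of them is itself an adhesion gene. Mpzl2, an immunoglobulin-like molecule of epithelia and thymus also called EVA1, had 6.13 in CD8+ DCs and 3.05, below the floor, in CD8- DCs, and so differed by at least 4.88-fold. Its 3 measured probe sets differed by 2.25 to 3.21. Equal differences carry little weight in this table, since 30.9% of the measured genes had a difference, other than 0, that another measured gene had to 6 decimals. Hepacam2 shared its difference with Arpin in that way.

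**Figure D3:**
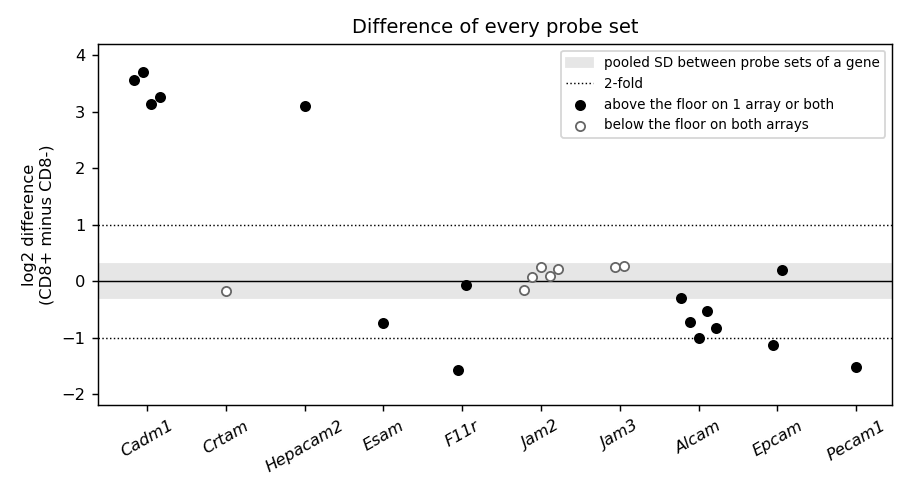
Log2 difference, CD8+ minus CD8-, of every probe set of the 10 genes. Filled points reached the floor on at least 1 array and open points did not. The grey band is the pooled SD of 0.30 on either side of 0, and dotted lines mark 2-fold. The Cadm1 points lie between 3.13 and 3.71, all 5 Alcam points lie below 0, and the points of F11r and of Epcam lie apart from each other.

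In the JAM family, F11r was the measured member and was more than 2-fold lower in CD8+ DCs by 1 of its 2 probe sets. F11r, which encodes JAM-A, had 4.42 in CD8+ DCs and 5.99 in CD8- DCs by the representative set, which is a difference of -1.56, or 2.96-fold lower in CD8+ DCs. Its other set, of the type prone to cross-hybridisation (_x_at), gave 3.79 in CD8+ DCs against 3.86 in CD8- DCs, a difference of -0.07 at the floor. The probe sets therefore disagree on the size, and their mean difference was -0.82, under 2-fold. Jam2 was below the floor by all 5 of its probe sets, with 2.08 to 3.12 in CD8+ DCs and 1.98 to 3.27 in CD8- DCs. Jam3 was below it by both of its probe sets, at 2.59 and 3.53 in CD8+ DCs and 2.35 and 3.25 in CD8- DCs. Of the 3 JAM genes, F11r, whose product also binds the integrin LFA-1, was the one with signal above the floor.

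Esam, the endothelial relative of the JAMs, had 4.94 in CD8+ DCs and 5.68 in CD8- DCs by its single probe set. The difference of -0.74, or 1.67-fold lower in CD8+ DCs, stayed under 2-fold. Of the 14 JAM and CTX relatives listed beside these genes, 12 were on the array and 5 were measured. Mpzl2 passed 2-fold towards CD8+ DCs, none passed it towards CD8- DCs, and the median was -0.01. Mpzl1, the relative of Mpzl2 with the next largest difference, was at 4.37 in CD8+ DCs and 4.73 in CD8- DCs. Vsir, the checkpoint molecule VISTA, was level at 7.80 in CD8+ DCs and 7.81 in CD8- DCs. The virus receptor gene Cxadr, of the same list, was just below the floor on both, at 3.79 and 3.71.

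Pecam1, which encodes CD31, was lower in CD8+ DCs. Its single probe set had 5.35 in CD8+ DCs against 6.88 in CD8- DCs, a difference of -1.52, or 2.88-fold lower in CD8+ DCs. The inhibitory motifs of Pecam1 recruit the phosphatases encoded by Ptpn6 and Ptpn11. Ptpn6 (SHP-1) was also lower in CD8+ DCs, at 8.81 against 10.68 in CD8- DCs (3.66-fold, with probe set differences of -1.87 and -1.85). Ptpn11 (SHP-2) was at 8.87 in CD8+ DCs and 8.71 in CD8- DCs.

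Pecam1 and Esam also mark endothelium, and Pecam1 platelets and monocytes, so the markers of those cells are given beside them. Of 10 endothelial markers, all on the array, 6 were below the floor on both arrays, among them the defining genes Cdh5 (3.32 in CD8+ DCs and 3.17 in CD8- DCs), Tek, Tie1 and Plvap. Summed over the list, the signal was 8.45 (log2) in CD8+ DCs, against 8.10 in CD8- DCs. Here and below, such a sum adds the unlogged signals of all listed genes on the array, also those below the floor. It therefore follows the brightest probe sets and does not measure how many cells of a type were present. Kdr (difference -1.10) and Vwf (1.83) passed 2-fold in opposite directions. Of 7 platelet markers on the array, 4 were measured and none reached 2-fold, with Pf4 and Ppbp below the floor on both. Their summed signal was 7.13 (log2) in CD8+ DCs, against 7.03 in CD8- DCs. Red pulp macrophage and monocyte markers were split, with 5 measured of the 7 on the array. Csf1r, Adgre1 and C1qa were at least 2-fold lower in CD8+ DCs, as Pecam1 was. Hmox1 passed 2-fold the other way. Vcam1 was also higher in CD8+ DCs, by 0.86, with 3 probe sets from 0.42 to 2.49. The summed log2 signal was 8.19 in CD8+ DCs and 10.93 in CD8- DCs, where the brightest gene was Csf1r at 10.56. The macrophage genes Spic and Cd5l were below the floor on both arrays. The part of such cells in the Pecam1, Esam and F11r differences was not tested.

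Alcam, which encodes the CD6 ligand CD166, was slightly lower in CD8+ DCs by every one of its 5 probe sets, and by less than 2-fold in each. The representative set had 8.48 in CD8+ DCs against 8.79 in CD8- DCs, a difference of -0.30, which was the smallest of the 5. The other 4 had 6.42 to 7.86 in CD8+ DCs and 7.25 to 8.59 in CD8- DCs, and the farthest reached a difference of -0.998. The mean difference was -0.68 ± 0.27 (SD over probe sets). Its receptor gene Cd6 was below the floor on both arrays, at 3.51 in CD8+ DCs and 3.34 in CD8- DCs.

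The 2 probe sets of Epcam went in opposite directions. The representative set, of the _x_at type, had 5.32 in CD8+ DCs against 5.12 in CD8- DCs, a difference of 0.21. The other had 4.04 in CD8+ DCs against 5.16 in CD8- DCs, a difference of -1.12, or 2.18-fold lower in CD8+ DCs. No direction is therefore given for Epcam. Of its known partners, the claudin gene Cldn7 (3.18 on both arrays) and the tetraspanin gene Tspan8 (3.50 in CD8+ DCs and 2.95 in CD8- DCs) were below the floor. The tetraspanin gene Cd9, which is not restricted to epithelia, was at 10.48 in CD8+ DCs and 9.61 in CD8- DCs.

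Of 19 listed counter-receptors and direct partners of the 10 genes, 18 were on the array and 13 were measured. None passed 2-fold towards CD8+ DCs, and 3 passed it towards CD8- DCs (Itgam, Ptpn6 and Epb41l3), with a median of 0.16. Itgam, the CD11b chain of the integrin Mac-1 that binds JAM-C, was at 2.78, below the floor, in CD8+ DCs and at 7.77 in CD8- DCs, or at least 15.2-fold lower in CD8+ DCs. Its shared β chain gene Itgb2 (11.17 and 11.57) and Itgal, the α chain of the JAM-A receptor LFA-1 (9.24 in CD8+ DCs and 8.53 in CD8- DCs), stayed under 2-fold. Epb41l3, which encodes a protein 4.1 family member that binds the tail of Cadm1, was at 3.48, below the floor, in CD8+ DCs and at 4.67 in CD8- DCs. Set against the floor it was at least 1.77-fold lower in CD8+ DCs, and its other measured probe set differed by -0.46. The tail-binding scaffold gene Mpp3 was below the floor on both, while Tiam1, a Rac activator that also binds Cadm1, was at 7.06 in CD8+ DCs and 6.83 in CD8- DCs.

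In the list of junction scaffolds and in that of claudins, occludin and cadherins, 1 gene each passed 2-fold. Over all measured genes, 3.55% passed it towards CD8+ DCs and 5.97% towards CD8- DCs. With lists this short, nothing is read from the counts. Of 11 measured scaffold genes out of 15 on the array, 1 passed 2-fold towards CD8- DCs and none towards CD8+ DCs (median -0.09). That gene was Cask, a membrane-associated guanylate kinase that binds nectin-like molecules, at 5.0 in CD8+ DCs and 6.26 in CD8- DCs (2.39-fold), with 3 measured probe sets between -1.26 and -0.62. Magi3, another scaffold of this class, was at 3.69, below the floor, in CD8+ DCs and at 4.59 in CD8- DCs. The tight junction scaffold gene Tjp1 (ZO-1) was below the floor on both. Of 21 claudin, occludin and cadherin complex genes on the array, 12 were below the floor on both arrays, including the cadherin genes Cdh1, Cdh2 and Cdh5. Marveld2, which encodes the tight junction protein tricellulin, was the 1 of 9 measured genes past 2-fold. It was at 5.25 in CD8+ DCs and 3.78, below the floor, in CD8- DCs, and so at least 2.64-fold higher in CD8+ DCs (list median 0.30). The cadherin gene Cdh17 was at 4.07 in CD8+ DCs and 4.51 in CD8- DCs.

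Of 16 other immunoglobulin-like adhesion genes on the array, 10 were measured, with 1 past 2-fold towards CD8+ DCs and 2 past it towards CD8- DCs (median -0.20). These counts rest on the representative probe sets. Ceacam1 and Vcam1 were under 2-fold by theirs, but the 5 measured sets of Ceacam1 ran from -2.52 to -0.16. The 3 of Vcam1 ran from 0.42 to 2.49. Cd99l2, a relative of the transmigration molecule CD99, was 2.51-fold higher in CD8+ DCs (6.58 against 5.25), but its 4 measured probe sets ranged from 0.20 to 1.84. L1cam, known from axons and also carried by some leukocytes, was 8.14-fold lower in CD8+ DCs (4.33 against 7.35). This size, from 1 probe set, approaches that of the representative Cadm1 set with the sign turned. The other Cadm1 sets differed by more. Icam2, a ligand of LFA-1, was 2.07-fold lower in CD8+ DCs (5.44 against 6.50), and Icam1, another LFA-1 ligand, was level at 8.73 in CD8+ DCs and 8.58 in CD8- DCs.

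**Figure D4:**
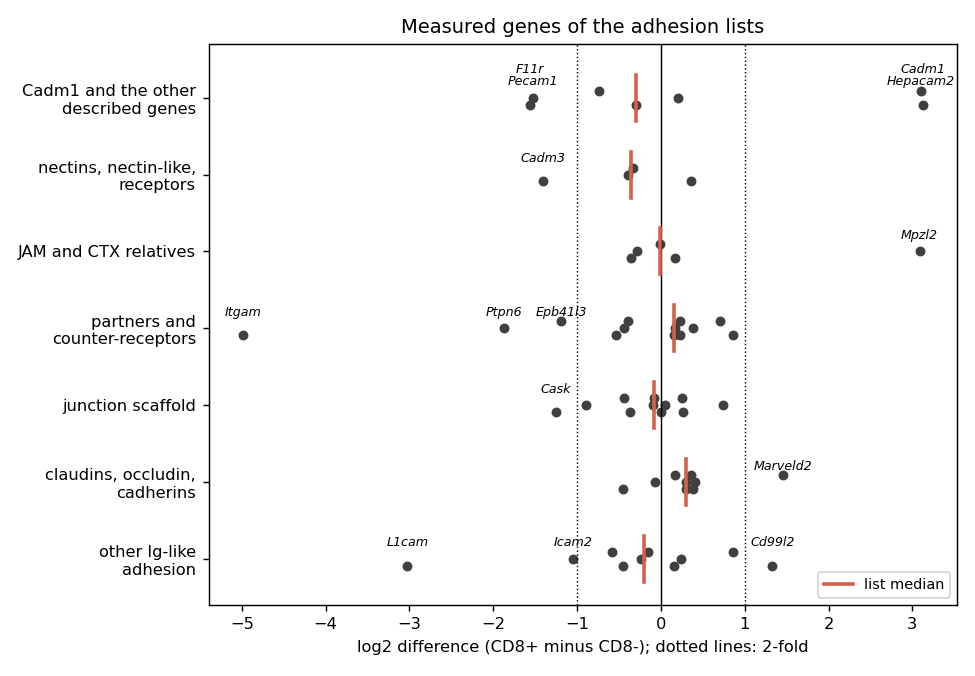
Log2 differences, CD8+ minus CD8-, of the measured genes in the described set and in 6 related lists, 1 point a gene, with list medians as red bars and 2-fold as dotted lines. Genes past 2-fold are named. Cadm1, Hepacam2 and Mpzl2 stand at about the same place on the right, and Itgam and L1cam stand farthest to the left.

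The sorted lineage was checked against its own markers and those of other cells. The DC genes Itgax, Flt3 and Zbtb46 and the class II genes H2-Aa, H2-Ab1 and Cd74 were above the floor and under 2-fold on both arrays. Cd8a (70.6-fold), Xcr1 and Irf8 passed 2-fold towards CD8+ DCs, and Itgam, Sirpa and Irf4 towards CD8- DCs. The cells were sorted on the Cd8a protein, and the 5 measured Cd8a probe sets differed by 1.73 to 6.26. Batf3 was higher in CD8+ DCs but under 2-fold (9.56 against 8.90, 1.59-fold). The melanocyte genes Dct, Tyr, Tyrp1 and Mlana, which B16 cells could bring, were below the floor on both arrays, and 3 of the 7 melanoma markers were measured with none past 2-fold (summed log2 signal 6.82 in CD8+ DCs, 6.77 in CD8- DCs). All 8 plasmacytoid DC markers were measured, and 6 were under 2-fold. Among these 6, the defining gene Siglech was at 3.71 in CD8+ DCs and 4.04 in CD8- DCs, and Bst2 at 7.37 and 7.80. Tcf4 was 4.24-fold lower in CD8+ DCs. Ccr9 was 4.26-fold higher there by a set of the _x_at type, and its other set differed by 1.11. That list summed to 9.24 in CD8+ DCs and 9.22 in CD8- DCs. The B cell gene Cd79b was below the floor in CD8+ DCs (3.28) and at 6.59 in CD8- DCs, with Cd79a below the floor on both, while Ms4a1 was higher in CD8+ DCs (5.74 against 4.99, under 2-fold). Over the B and plasma cell list, the summed log2 signal was 6.72 in CD8+ DCs and 7.40 in CD8- DCs. In the other marker lists, the summed log2 signals were 6.42 in CD8+ DCs and 6.64 in CD8- DCs for T cells, 5.97 and 6.34 for NK cells, 5.90 and 5.52 for neutrophils and 5.65 and 5.51 for stroma. Erythroid markers summed to 6.97 in CD8+ DCs and 8.48 in CD8- DCs, where the transferrin receptor gene Tfrc, which dividing cells also use, was the 1 past 2-fold.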

How the data were processed

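Total RNA was labelled as biotinylated cRNA and hybridised to Affymetrix arrays, 1 per population. The values used are the log2 signals per probe set that the authors deposited, made with RMA, as the tool is named per the labels. RMA subtracts background, gives arrays the same distribution by quantile normalisation and summarises probes by median polish, so a shift shared by most transcripts cannot be seen. Neither its version nor which arrays were normalised as 1 set is stated in the labels. The columns were not centred, with medians of 3.86 (CD8+) and 3.83 (CD8-), and a single colour leaves no direction to settle. Detection calls were not used here, and precision is limited by the number of arrays.

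Of 45101 probe sets, the platform annotation gave 34958 a single gene, 932 several and 9211 none. Symbols were updated by gene identifier to RefSeq (GRCm38.p6) for 34754, and 204 kept the annotation's symbol. The floor left 11404 of 18194 genes (62.7%). The 45 bacterial and phage control probe sets differed by 0.07 ± 0.12 (mean ± SD). Folds with a dimmer value below the floor use the floor and read "at least".

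The members, the 6 other adhesion lists and the 12 marker lists were chosen with earlier results of these data known. In each adhesion list, every measured gene past 2-fold was named, and otherwise those with the largest differences, up to 2. Other list genes were named for their role after their values were seen. The 5 genes nearest in difference to Cadm1 and to Hepacam2 were named. Alternatives were centring on the median, a lowess trend (span 0.3), no filter or a floor at the 75th percentile, averaged probe sets, no _x_at or _s_at sets, values below the floor set to it, and thresholds of 1.5-fold and 4-fold. Python 3.11.15, numpy 2.4.6, pandas 2.3.3, statsmodels 0.14.6 and matplotlib 3.10.9 were used. The calculation was tested on simulated data.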

Additional observations from a re-analysis of the deposited data

How the results depend on the processing

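With 1 array per population, every alternative is a description. Of 49 values of single genes under the alternatives, 4 moved by more than the pooled SD of 0.30 between probe sets of a gene. The other 45 moved by less or not at all. They include values that an alternative could not move, such as averaging for a gene with 1 probe set. Setting low values to the floor could likewise not move a gene whose representative set was above it on both arrays. The 49 values also cover Crtam, Jam2 and Jam3, which were not measured. The count of 45 is therefore no gauge of stability. No gene past 2-fold as reported changed sign, but Epcam, reported at 0.21, did so under both alternatives on probe sets. Averaging the probe sets of a gene gave -0.82 for F11r, which ended its 2-fold call, -0.68 for Alcam and -0.46 for Epcam. Of genes past 2-fold towards CD8- DCs, 1 was then left, and the median over the 7 measured genes was -0.68. Without _x_at and _s_at probe sets, Epcam was at -1.12, past 2-fold towards CD8- DCs, and Hepacam2 had no probe set. That gave 1 gene past 2-fold towards CD8+ DCs and 3 towards CD8- DCs, with a median of -0.93. A floor at the 75th percentile kept 4 genes, with 1 past 2-fold towards CD8- DCs and a median of 1.40, because the dimmer genes were no longer counted. At 4-fold, none was higher in CD8- DCs (0 genes), while Cadm1 and Hepacam2 passed. The other counts and medians stayed within 1.5 times or within 0.30 of those reported. Genes near the floor, such as F11r, Esam and Epcam, may have compressed differences, which was not measured. A real difference in Crtam, Jam2 or Jam3 would not be detectable at these signals.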

Other observations

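The chromosomal neighbours of these genes did not share their differences as a rule. Gene order was taken from the RefSeq annotation of GRCm38.p6, with the nearest protein-coding gene that had a probe set on each side, and the neighbours were looked at after the members' values were known. Next to Cadm1 lies Nxpe4, which went the other way, with 2.14, below the floor, in CD8+ DCs and 7.46 in CD8- DCs, or at least 12.3-fold lower in CD8+ DCs. Hepacam2 lies between Samd9l (9.42 in CD8+ DCs and 9.83 in CD8- DCs) and Vps50 (7.20 and 7.39), both under 2-fold. Next to Pecam1 lies Milr1, the mast cell receptor gene also called allergin-1, which was lower in CD8+ DCs as Pecam1 was, at 4.08 against 6.26 in CD8- DCs (4.52-fold). Alcam lies between Cblb, higher in CD8+ DCs (8.40 against 6.90), and Nfkbiz, lower there (8.58 against 10.26). Esam lies next to another CTX relative, Vsig2, at 4.41 in CD8+ DCs and 4.24 in CD8- DCs.

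The same difference between the arrays, to 6 decimals, recurred in unrelated genes. Of 11404 measured genes, 2.56% had the same value on both arrays and 30.9% had a difference, other than 0, that another gene had to 6 decimals. Besides Hepacam2 with Arpin, F11r shared its difference with Slc43a3 and Pecam1 with Fut7. Differences in this table can therefore not be read as independent measurements to their last digits.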
